A study of Mus musculus with 6 samples.

Results

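Described here are 42 mouse genes of the response to low oxygen and of glycolysis, chosen by name, with no measured value in the rule. The list was, however, chosen with earlier results of these data known. The files list 34284 gene names over 39495 loci, and all 42 names were found. They fall into 5 roles, namely 6 genes of oxygen sensing, 3 transporters, 15 glycolytic enzymes, 4 glycolytic regulators and 14 other targets of the hypoxia-inducible factors. A second locus carried the name Adm on the opposite strand and was not used. The cells were mouse embryonic fibroblasts, primary connective tissue cells grown out of embryos, of the strain C57BL/6, cultured in DMEM medium containing 10% FCS (fetal calf serum). Poly(A) RNA was sequenced from 3 libraries of the genotype STC1+/+, called wild-type here, and from 3 of the genotype STC1-/-, called knockout. The knockout cells carry a disrupted Stc1, which encodes the secreted glycoprotein stanniocalcin-1 and is itself known as a target of the hypoxia-inducible factors. The oxygen level of the cultures, the part of Stc1 that was disrupted and the embryos behind each library are not stated in the sources used here. The p-values therefore reflect the variation among these 6 libraries, which may be technical.

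The hypoxia-inducible factors (HIFs) are pairs of an oxygen-controlled alpha subunit, made by Hif1a or Epas1, and a constant beta subunit, made by Arnt. With oxygen present, prolyl hydroxylases of the Egln family mark the alpha subunit, the Vhl protein binds the mark, and the alpha subunit is degraded. With little oxygen it persists and switches on glucose import, nearly every step of glycolysis, lactate export and genes for blood vessel growth, acid balance and mitochondrial turnover. The control acts mainly on the protein, so the RNA of Hif1a need not follow the activity of the factor.

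The libraries held between 21882092 and 71488701 estimated fragments, the fewest in knockout replicate 1. Levels are given as CPM, fragments scaled to a common library size. Levels of different genes are compared as FPKM, which also divides by transcript length. The exception is pseudogene copies, which are set beside their own gene in CPM, without regard to length. Stc1 stood at 31.8, 6.82 and 7.62 CPM in wild-type replicates 1 to 3 and at 0.282, 0 and 0 CPM in knockout replicates 1 to 3. The markers of fibroblasts measured, 8 of 9, summed to 5519 to 31028 CPM, the least in knockout replicate 1 and the most in wild-type replicate 2. The 14 macrophage markers measured summed to 219, 1362 and 10990 CPM in the wild-type libraries and to 1121, 306 and 335 CPM in the knockout libraries, with no marker at 0 in any library. The locus of Cd68 in this sum is shared with other genes, among them Eif4a1 and Senp3, and their fragments cannot be told apart. Part of the sum, above all where it is low, may therefore come from other cells. The 11 markers of proliferation summed to 798, 1863 and 536 CPM in wild-type and to 556 to 662 CPM in knockout libraries. By these sums wild-type replicate 2 stood apart in fibroblast and proliferation markers and wild-type replicate 3 in macrophage markers. The deposited status was FAIL for Col1a2 and Top2a in wild-type replicate 2, Thy1 in wild-type replicates 1 to 3 and Cx3cr1 in wild-type replicate 1. Single fibroblast markers also differed in direction. The authors' own comparison gave log2 values (knockout over wild-type) of -2.95 for Col3a1, -1.76 for Col1a2, -0.46 for Vim and 1.16 for Dcn.

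Most of the 42 genes were higher in the knockout mean, but none passed the test across all loci. The fitted log2 fold change (knockout minus wild-type) was positive for 35 of the 42 genes, against 44.4% of the 15673 loci tested, and its median was 0.50 against -0.05 over all loci. All 42 genes passed the filter on low counts. edgeR's quasi-likelihood test with Benjamini-Hochberg adjustment called 0 of them at an adjusted p under 0.05, and it called 0% of all loci in either direction. The adjusted p of the members lay between 0.763 and 0.943. At an unadjusted p under 0.05, edgeR had 3 higher members (Hif1a, Hk2 and Ddit4), beside 1.6% of all loci, and 1 lower member (Pfkfb4), beside 2.27%. DESeq2 called 0 members, beside 0.152% of loci called higher and 0.168% called lower, and its lowest adjusted p for a member was 0.345, for Hif1a. At an unadjusted p under 0.05 DESeq2 had 5 higher members, beside 1.94% of loci, and 1 lower member, beside 3.26%. In bulk RNA, fewer cells of a type and less RNA per cell cannot be told apart.

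The members differed more among the wild-type libraries than among the knockout libraries. Wild-type replicates 2 and 3 were the lowest 2 of the 6 libraries for 32 of the 42 genes, a pattern found in 18.4% of all loci. Wild-type replicate 1 lay inside the range of the knockout libraries for 33 of the 42 genes, against 53.3% of all loci. The highest wild-type level was a median of 2.58 times the lowest over the members and 1.77 times over all loci, while within the knockout group these medians were 1.49 and 1.29. Taking each gene's deviation from its own mean over the 6 libraries on the log2 scale, the median over the 42 genes was 0.25, -0.83 and -0.43 in wild-type replicates 1 to 3. In knockout replicates 1 to 3 it was 0.56, 0.33 and 0.11.

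**Figure D1:**
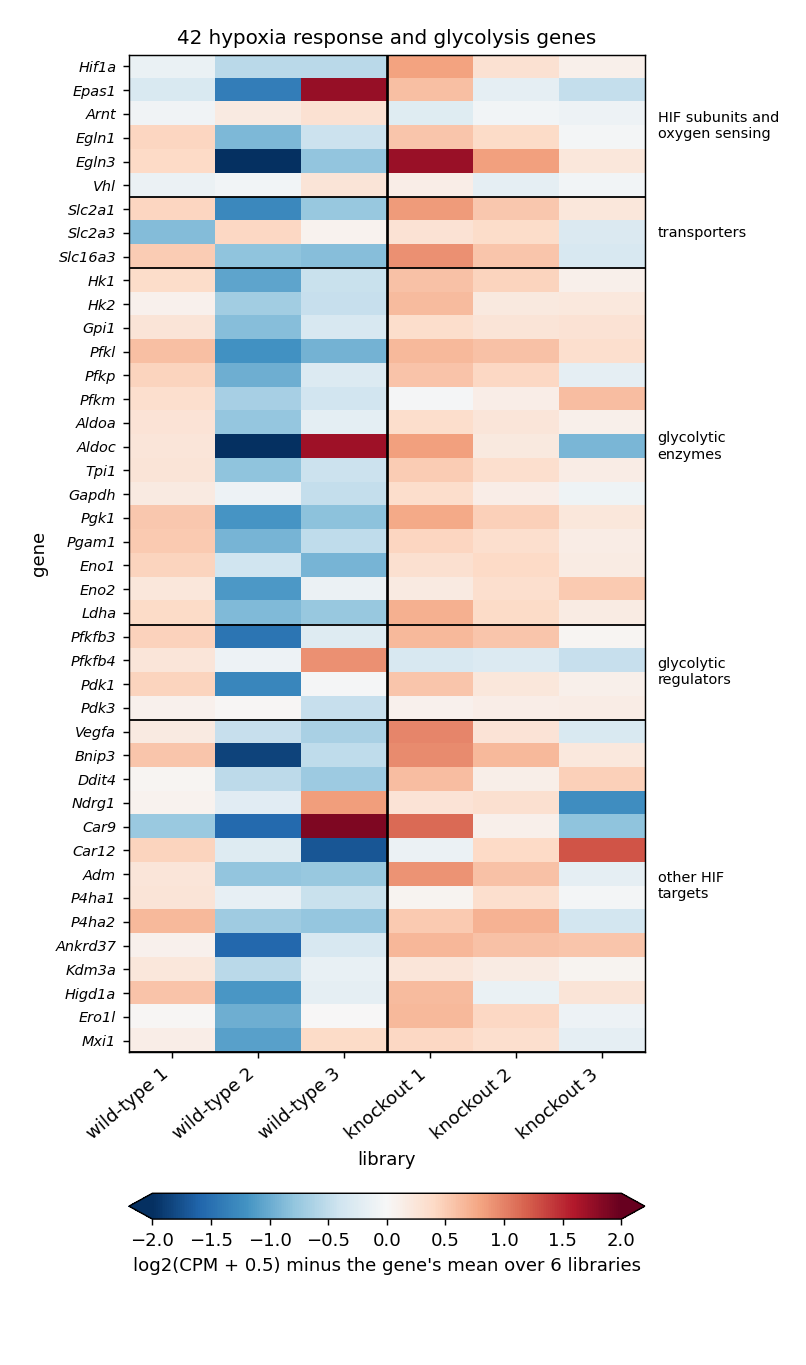
Level of the 42 genes in each library, as log2(CPM + 0.5) minus the gene's mean over the 6 libraries, with genes in order of role and the color scale ending at 2 in either direction. Wild-type replicates 2 and 3 are blue for most genes and hold the 2 lowest values for 32 of the 42, whereas wild-type replicate 1 resembles the knockout columns in color.

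HIFs bind DNA at a short core, ACGTG or GCGTG, and the promoter windows of the members were searched for it. RefSeq promoter windows (GRCm38.p6, the mm10 build of the files) run from 250 bases before to 50 bases after a start and were found for 39 of the 42 genes, all but Epas1, Slc2a3 and Ndrg1. Both motifs were searched on both strands, so CACGT and CACGC also count, and the palindrome CACGTG counts once on each strand. The core was present in a window of 34 of the 39 genes (87.2%), against 46.7% of all 27025 genes with a window and 65.9% of the 10498 tested genes with one. Member windows held a median of 24 CG pairs against 21 in tested genes, and among the 4496 tested genes with at least 24 such pairs the share with a core was 79.2%. For ACGTG alone the shares were 66.7% in the members, 21.8% in all genes and 33.4% in those CG-rich tested genes. For GCGTG alone they were 66.7%, 35.2% and 70%, so the members did not exceed the CG-rich tested genes in that motif. The 5 genes with a window and no match were Vhl, Gpi1, Tpi1, Eno2 and Car12, so the enzymes had a match in 12 of 15 and the other HIF targets in 12 of 13. A match is only a description of letters and not a measured binding site.

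Windows of 5 genes are printed to show how the core is placed in members with different values, the enzymes Ldha and Pgk1, the mitophagy gene Bnip3, the hydroxylase Egln3, and Pfkfb4, the lower gene. They are written 5′ to 3′ along the gene with each core in capitals, and positions count from the start as 0. Ldha had 2 windows, and the one with the most matches is printed (chr7:46845554-46845853, plus strand). It held 7 matches, with CACGTG palindromes that begin at -145 and -48. Pgk1 (chrX:106186850-106187149, plus strand) held matches at -150 and -131. Bnip3 (chr7:138909457-138909756, minus strand) held 5, among them the palindrome that begins at -108. Egln3 (chr12:54203825-54204124, minus strand) held 1 at -229, and Pfkfb4 (chr9:108991652-108991951, plus strand) held 1 GCGTG at -117.
Ldha: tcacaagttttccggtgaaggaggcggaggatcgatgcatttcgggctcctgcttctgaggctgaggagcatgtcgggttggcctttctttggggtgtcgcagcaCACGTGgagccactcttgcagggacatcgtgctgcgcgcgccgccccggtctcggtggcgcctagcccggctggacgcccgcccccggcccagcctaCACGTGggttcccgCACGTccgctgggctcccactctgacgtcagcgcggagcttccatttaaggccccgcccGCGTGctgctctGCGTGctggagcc
Pgk1: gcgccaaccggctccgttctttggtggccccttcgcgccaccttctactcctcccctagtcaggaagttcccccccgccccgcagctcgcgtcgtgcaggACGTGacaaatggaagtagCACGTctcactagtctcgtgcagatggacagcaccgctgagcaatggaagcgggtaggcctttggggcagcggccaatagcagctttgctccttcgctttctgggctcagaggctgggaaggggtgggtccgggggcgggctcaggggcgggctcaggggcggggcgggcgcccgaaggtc
Bnip3: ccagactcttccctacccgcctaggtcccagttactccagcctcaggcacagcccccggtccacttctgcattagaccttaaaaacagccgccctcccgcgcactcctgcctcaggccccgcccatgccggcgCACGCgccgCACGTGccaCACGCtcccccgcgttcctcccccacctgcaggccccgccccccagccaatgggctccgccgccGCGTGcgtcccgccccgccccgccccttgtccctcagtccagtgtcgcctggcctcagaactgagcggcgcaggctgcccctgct
Egln3: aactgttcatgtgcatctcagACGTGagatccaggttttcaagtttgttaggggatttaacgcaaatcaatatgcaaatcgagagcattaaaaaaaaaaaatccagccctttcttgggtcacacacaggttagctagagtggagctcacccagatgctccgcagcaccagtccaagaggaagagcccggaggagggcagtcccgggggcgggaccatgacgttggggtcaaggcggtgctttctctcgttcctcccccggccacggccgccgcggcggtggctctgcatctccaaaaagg
Pfkfb4: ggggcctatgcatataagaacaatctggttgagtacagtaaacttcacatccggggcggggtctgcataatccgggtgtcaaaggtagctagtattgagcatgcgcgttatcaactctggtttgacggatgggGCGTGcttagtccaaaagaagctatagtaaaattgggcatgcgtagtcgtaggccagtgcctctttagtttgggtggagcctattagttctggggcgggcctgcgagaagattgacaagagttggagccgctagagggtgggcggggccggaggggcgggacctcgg

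Among the genes of oxygen sensing, Hif1a (chr12:73901275-73949793, plus strand of mm10, as are all positions here) was higher in every knockout library than in any wild-type library. It was measured at 549.7, 416 and 414 CPM in wild-type replicates 1 to 3 and at 1054, 745 and 651 CPM in knockout replicates 1 to 3, so the groups did not overlap. That is 460.1 ± 77.6 against 817 ± 211 CPM (SD, n = 3 each). The log2 fold change was 0.83 ± 0.25 (SE), and edgeR's quasi-likelihood test gave an unadjusted p of 0.0155. It ranged from 0.60 to 0.98 when any 1 library was left out, and its adjusted p over all alternatives ranged from 0.18 to 1. Groups without overlap were found for 5 members with higher knockout levels (Hif1a, Hk2, Pdk3, Ddit4 and Ankrd37), beside 5.18% of all loci. For lower knockout levels there was 1 such member, Pfkfb4, beside 5.44%.

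Epas1, the alpha subunit HIF-2 alpha, was measured at 12.7, 5.74 and 54.3 CPM in wild-type and at 24.1, 13.9 and 11.2 CPM in knockout libraries. Its high value was wild-type replicate 3, the library highest in macrophage markers, and the other 5 libraries overlapped; the part of macrophage RNA in this value was not tested. With all 6 libraries its log2 fold change was -0.56 ± 0.83 (SE), and without wild-type replicate 3 it was 0.83. Hif1a made up 90.1% to 98.9% of the summed FPKM of both alpha subunits, the lowest share being in wild-type replicate 3. Arnt was the member that went the other way in the same libraries. It was measured at 73.3, 87.0 and 95 CPM in wild-type and at 64.8, 73.6 and 71.5 CPM in knockout libraries, so that wild-type replicates 2 and 3 were the highest 2, as in 16.8% of all loci. Its log2 fold change was -0.28 ± 0.15 (SE), and its deposited status was FAIL in 2 libraries.

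Of the hydroxylases, Egln3 (chr12:54178981-54203860, minus strand), which is itself strongly induced by HIF, had the largest fold change of all 42 genes. It was measured at 101, 14 and 44.0 CPM in wild-type and at 254, 134 and 89.3 CPM in knockout libraries. Wild-type replicate 1 lay above knockout replicate 3, so the groups overlapped. Its log2 fold change was 1.59 ± 0.76 (SE), and it moved from 1.08 to 2.47 as single libraries were left out, the highest value being without wild-type replicate 1. Egln1, the main oxygen sensor of the family, was measured at 179, 71.3 and 98.2 CPM in wild-type and at 195, 174 and 129 CPM in knockout libraries, a log2 fold change of 0.52 ± 0.37 (SE). Of the summed FPKM of Egln1, Egln2 and Egln3, Egln3 held 20.8% ± 11.2 in wild-type and 41.2% ± 9.90 in knockout cells (SD, n = 3 each), with every knockout share above every wild-type share. The nearest shares were 31.8% in wild-type replicate 1 and 33.0% in knockout replicate 3. Vhl, the ubiquitin ligase component that recognizes the hydroxylated alpha subunit, was measured at 35.2, 36.5 and 45.8 CPM in wild-type and at 41.9, 33.6 and 36.5 CPM in knockout libraries. Its log2 fold change of -0.07 ± 0.17 (SE) was among the smallest of the members.

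**Figure D2:**
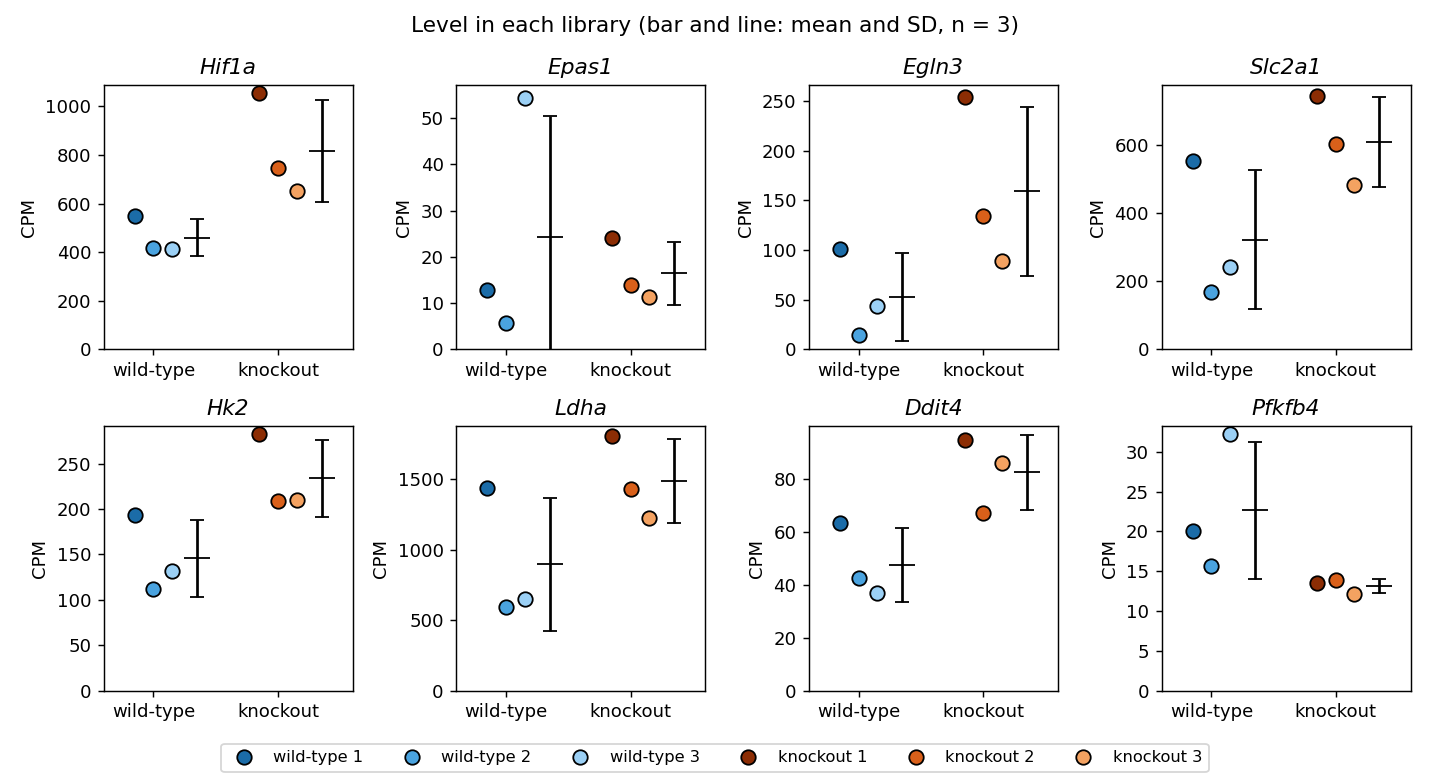
Level of 8 members in each library, in CPM, with each genotype's mean and SD (n = 3 each) drawn beside the points and cut at 0 for Epas1. The groups do not overlap for Hif1a, Hk2, Ddit4 and Pfkfb4, and wild-type replicate 1 lies near the knockout libraries for Slc2a1 and Ldha.

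The transporters followed the pattern of the libraries, apart from Slc2a3. Slc2a1 (chr4:119108711-119139895, plus strand), the glucose importer GLUT1, was measured at 556, 169 and 244 CPM in wild-type and at 747, 603 and 483 CPM in knockout libraries. Only wild-type replicate 1 reached into the knockout range, and the log2 fold change was 0.92 ± 0.47 (SE). Slc16a3, the lactate exporter MCT4, was measured at 288, 115 and 112 CPM in wild-type and at 381, 295 and 161 CPM in knockout libraries, a log2 fold change of 0.70 ± 0.50 (SE). Slc2a3, the high-affinity glucose importer GLUT3, was measured at 4.40, 11.4 and 8.88 CPM in wild-type and at 10.4, 10.9 and 6.79 CPM in knockout libraries. Here wild-type replicate 1 was the lowest of the 6, and the log2 fold change was 0.19 ± 0.40 (SE). Slc2a1 held 95.5% to 99.4% of the summed FPKM of both glucose importers.

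Nearly all glycolytic enzymes shared a pattern across libraries. Of the 15 enzymes, 14 had a positive log2 fold change, with a median of 0.53 over the role, and the same 14 had their 2 lowest values in wild-type replicates 2 and 3. Hk2 (chr6:82725022-82774454, minus strand), the HIF-induced hexokinase that traps glucose in the cell, was measured at 193, 112 and 132 CPM in wild-type and at 282, 209 and 210.1 CPM in knockout libraries. Its groups did not overlap, its log2 fold change was 0.68 ± 0.26 (SE), and edgeR's quasi-likelihood test gave an unadjusted p of 0.0379. Hk1, the housekeeping hexokinase, was measured at 331, 124 and 188 CPM in wild-type and at 384, 350.3 and 276 CPM in knockout libraries, and wild-type replicate 1 lay inside the knockout range. Gpi1, which interconverts glucose and fructose phosphate, was measured at 454, 209.8 and 304 CPM in wild-type and at 486, 452 and 463 CPM in knockout libraries. The log2 fold changes of Hk1 and Gpi1 were 0.65 and 0.53, with standard errors of 0.38 and 0.29, and that of Gpi1 was 0.31 without wild-type replicate 2.

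Tpi1, the triose phosphate isomerase, was measured at 657, 314 and 409.7 CPM in wild-type and at 783, 696 and 612 CPM in knockout libraries. The difference was 0.60 ± 0.30 (SE) on the log2 scale. Ldha (chr7:46841475-46855749, plus strand), whose printed promoter window held the 7 matches shown above, makes the lactate dehydrogenase subunit that favors lactate formation. It was measured at 1438, 595 and 652 CPM in wild-type and at 1806, 1428 and 1225 CPM in knockout libraries, so that wild-type replicate 1 lay above knockout replicates 2 and 3. On the log2 scale the difference was 0.73 ± 0.40 (SE). Eno2, the neuronal enolase that HIF also induces, was measured at 55.7, 21.4 and 43.9 CPM in wild-type and at 54.4, 60.3 and 68.7 CPM in knockout libraries, a log2 fold change of 0.60 ± 0.35 (SE) and of 0.31 without wild-type replicate 2.

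The other 8 enzymes with positive values are the phosphofructokinases Pfkl, Pfkp and Pfkm, the aldolase Aldoa, Gapdh, the phosphoglycerate kinase Pgk1, the mutase Pgam1 and the enolase Eno1. Their log2 fold changes ran from 0.27 for Gapdh to 0.81 for Pfkl, each with groups that overlapped. Aldoc, the brain aldolase, was the exception. It was measured at 14.6, 2.65 and 41.3 CPM in wild-type and at 22.1, 14.2 and 6.30 CPM in knockout libraries, with its highest value in wild-type replicate 3 and its lowest in wild-type replicate 2. The fitted log2 fold change was -0.46 ± 0.95 (SE), it was 0.71 without wild-type replicate 3, and limma on log2(FPKM + 1) gave 0.050.

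On the FPKM scale the enzymes spanned a wide range of levels. The locus of Aldoa, shared with other genes, had the highest listed level, 664 ± 215 FPKM in wild-type and 901 ± 64.8 FPKM in knockout cells. It was followed by Ldha at 477 ± 238 and 812 ± 151 FPKM and Tpi1 at 251 ± 90 and 388 ± 41.4 FPKM (SD, n = 3 each). Fragments of some enzymes may lie at pseudogene copies, as given below, so this order is uncertain. Aldoa and Ldha did not differ beyond their spread in either genotype, and Tpi1 lay below both in the knockout cells. At the lower end stood Aldoc at 9.17 ± 9.21 and 7.09 ± 3.74 FPKM.

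Gapdh, usually among the most abundant transcripts of a cell, was listed at only 15.7 ± 5.38 FPKM in wild-type and 16.5 ± 1.59 FPKM in knockout cells (SD, n = 3 each). Its transcript had 155 pseudogene copies with at least 90% identity over at least 500 bases in the GENCODE M21 transcripts, 70 of them with at least 95%. The 66 loci in the files that carry the names of such copies held 111 to 177 CPM in all, against 18.3 to 33.0 CPM at the Gapdh locus. The value of Gapdh is therefore uncertain. Of the members, 10 have such copies. Those of Pgam1, 3 in number, held 49.3 to 134 CPM against 17.6 to 49.6 CPM at Pgam1 itself. The copy loci of Gpi1 held 123 to 279 CPM and those of Eno1 held 64.6 to 175 CPM, so the levels of these enzymes are also uncertain. The same holds for Bnip3, whose copy loci held 6.79 to 41.0 CPM against 22.5 to 159 CPM at Bnip3 itself. The locus of Aldoa is shared with Ppp4c and Gm15676, and that of Gpi1 with Gm12762, so their fragments cannot be told apart.

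Among the regulators, Pfkfb3 and Pfkfb4 went in opposite directions. Both make and break down fructose 2,6-bisphosphate, the main activator of phosphofructokinase. Pfkfb4 (chr9:108988324-109032226, plus strand) was measured at 20.1, 15.7 and 32.2 CPM in wild-type and at 13.5, 13.9 and 12.1 CPM in knockout libraries, without overlap. Its log2 fold change was -0.78 ± 0.29 (SE), and edgeR's quasi-likelihood test gave an unadjusted p of 0.0375. Without wild-type replicate 3, its highest library, the value was -0.44. Pfkfb3, a HIF-induced form with high kinase activity, was measured at 153, 40.1 and 92.6 CPM in wild-type and at 175, 162 and 114 CPM in knockout libraries. It overlapped through wild-type replicate 1 and had a log2 fold change of 0.66 ± 0.48 (SE). Of the summed FPKM of the 4 Pfkfb genes, Pfkfb4 held 20.2% ± 6.48 in wild-type and 9.10% ± 0.993 in knockout cells (SD, n = 3 each), and the shares did not overlap.

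The pyruvate dehydrogenase kinases inhibit pyruvate dehydrogenase in the mitochondrial matrix, which limits the conversion of pyruvate to acetyl-CoA. Pdk1 was measured at 117, 34.3 and 84.2 CPM in wild-type and at 127, 101 and 92.8 CPM in knockout libraries, a log2 fold change of 0.45 ± 0.44 (SE). Pdk3 was measured at 61.8, 59.5 and 42.1 CPM in wild-type and at 61.9, 64.0 and 64.9 CPM in knockout libraries. Its groups were separate only by the small step from 61.8 to 61.9 CPM, and its log2 fold change was 0.22 ± 0.18 (SE), or 0.068 without wild-type replicate 3, its lowest library.

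Where several genes encode the same enzymatic step, the share of each in the summed FPKM also differed between libraries. Of the 3 hexokinases Hk1, Hk2 and Hk3, Hk1 held the largest share in 5 of the 6 libraries, from 57.7% to 71.8%. In wild-type replicate 3 it held 34.3%, and Hk3, a hexokinase known from white blood cells, held 49.4% there and 0.0945% in wild-type replicate 1. Wild-type replicate 3 was the library with 10990 CPM of macrophage markers, and wild-type replicate 1 had 219 CPM; the part of macrophages in the hexokinase shares was not tested. Pfkl held 53.0% to 67.6% of the phosphofructokinase FPKM, lowest in wild-type replicate 3. As with Egln3 and Pfkfb4, its shares did not overlap, at 53.0% to 66.6% in wild-type and 67.2% to 67.6% in knockout libraries. The same held for Pdk4 among the Pdk genes (3.58% to 4.99% against 5.13% to 16.3%). It also held for Eno3 among the enolases (4.70% to 5.72% against 1.96% to 4.28%). No rate over all loci was worked out for such shares. Ldha held 93.6% to 97.8% of the FPKM of Ldha and Ldhb, and Aldoa 97.2% to 99.7% of that of Aldoa and Aldoc.

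**Figure D3:**
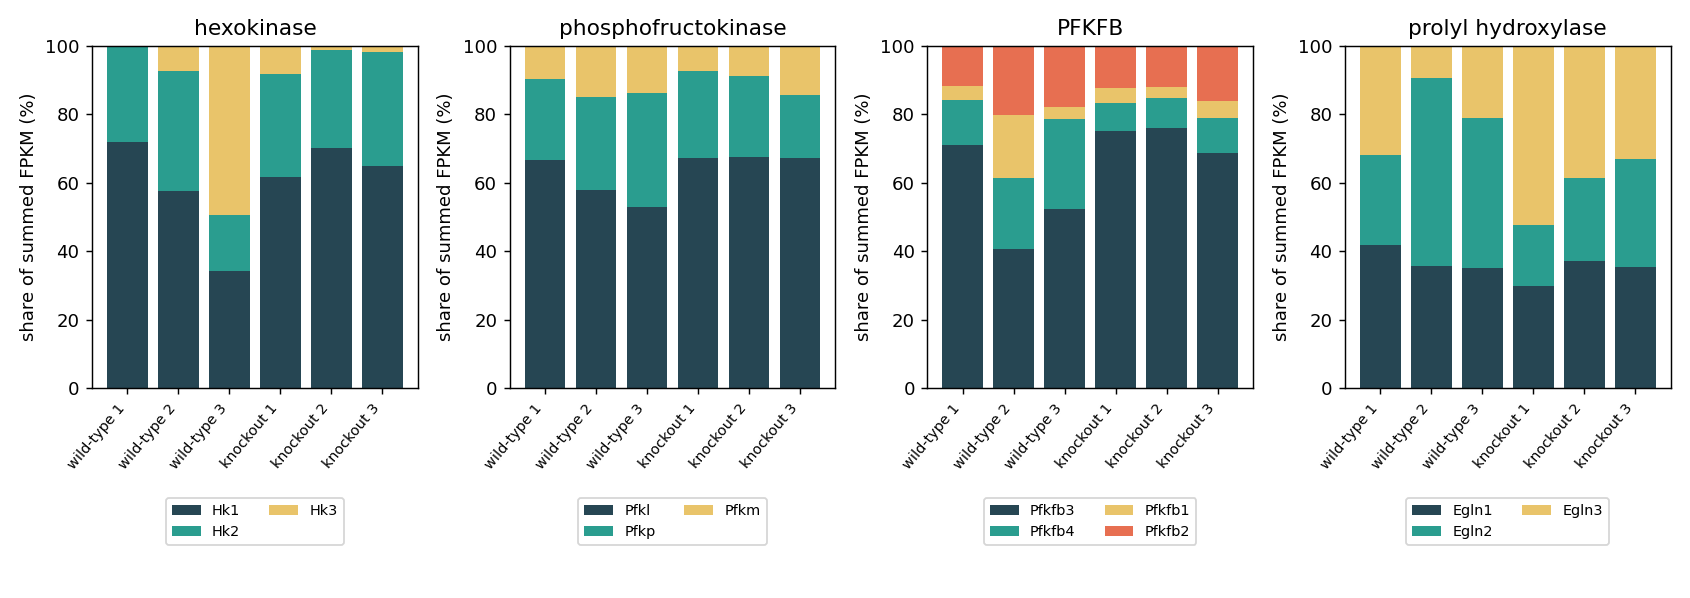
Share of each gene in the summed FPKM of its family, in percent, in each of the 6 libraries. Hk3 takes 49.4% of the hexokinase total in wild-type replicate 3. The share of Pfkfb4 is lower and those of Egln3 and Pfkl are higher in each knockout library than in any wild-type library.

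The other HIF targets were positive in log2 fold change for 12 of 14, at a median of 0.53. Ddit4 (chr10:59949675-59951770, minus strand), an inhibitor of mTOR complex 1 that stress induces, was measured at 63.3, 42.6 and 36.8 CPM in wild-type and at 94.7, 67.0 and 85.9 CPM in knockout libraries. The groups did not overlap, the log2 fold change was 0.79 ± 0.25 (SE), and edgeR's quasi-likelihood test gave an unadjusted p of 0.0206. Ankrd37, a small ankyrin repeat gene, was measured at 7.06, 1.90 and 5.21 CPM in wild-type and at 10.8, 10.2 and 9.94 CPM in knockout libraries. Its groups did not overlap either, and its log2 fold change was 1.12 ± 0.48 (SE).

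Among secreted signals, Adm, which encodes the vessel-widening peptide adrenomedullin, was measured at 113, 55.3 and 56.7 CPM in wild-type and at 180.0, 144 and 84.5 CPM in knockout libraries. The fitted log2 fold change was 0.86 ± 0.40 (SE). Vegfa, the vascular growth factor, was measured at 325, 208 and 183 CPM in wild-type and at 568, 346 and 233 CPM in knockout libraries, a log2 fold change of 0.68 ± 0.39 (SE). For both genes knockout replicate 1 was the highest of the 6 libraries and knockout replicate 3 lay below wild-type replicate 1.

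Bnip3, a mitophagy receptor of the outer mitochondrial membrane, was measured at 121, 22.5 and 58.2 CPM in wild-type and at 159, 130.3 and 96.1 CPM in knockout libraries. The fitted log2 fold change was 0.93 ± 0.59 (SE), and the values of wild-type replicate 1 and the knockout group overlapped. Ero1l, a thiol oxidase of the endoplasmic reticulum, was measured at 217, 109 and 214 CPM in wild-type and at 334, 283 and 198 CPM in knockout libraries, a log2 fold change of 0.59 ± 0.34 (SE) and of 0.35 without wild-type replicate 2. It was the only member on chromosome 14, the chromosome of Stc1.

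Of the other 8 targets, the collagen prolyl hydroxylases P4ha1 and P4ha2, the histone demethylase Kdm3a, the mitochondrial protein Higd1a, the Myc antagonist Mxi1 and the carbonic anhydrase Car12 had log2 fold changes between 0.22 for P4ha1 and 0.95 for Car12. Ndrg1, a stress-response gene, and Car9, a cell-surface carbonic anhydrase, were negative at -0.36 and -0.27, with standard errors of 0.49 and 1.01. Car9 was measured at 7.28, 3.91 and 46.9 CPM in wild-type and at 28.0, 13.4 and 6.94 CPM in knockout libraries, and its deposited status was FAIL in 1 library. As with Epas1 and Aldoc, its highest value was in wild-type replicate 3, without which its log2 fold change was 1.52 and that of Ndrg1 was 0.01. For Car9, limma gave a positive value with all libraries too, 0.19 with voom and 0.28 on log2(FPKM + 1). That of Mxi1, 0.28 with all libraries, was -0.04 without wild-type replicate 2. Wild-type replicate 3 was the highest library for 7 of the 42 genes, against 28.9% of all loci, and wild-type replicate 2 was the lowest for 27, against 28.6%.

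The glycolytic enzymes and the other HIF targets had like medians. Both median log2 fold changes were 0.53, and the difference between the medians was under 0.01 with all 6 libraries. By library, the median deviation of the enzymes from their gene means was 0.33, -0.89 and -0.45 in wild-type and 0.50, 0.33 and 0.16 in knockout replicates 1 to 3. For the other HIF targets it was 0.20, -0.75 and -0.38 in wild-type and 0.62, 0.33 and -0.08 in knockout replicates 1 to 3. Both roles were thus lowest in wild-type replicate 2 and highest in knockout replicate 1. The 2 lowest libraries were wild-type replicates 2 and 3 for 14 of the 15 enzymes and for 10 of the 14 other targets.

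The size of the genotype difference depended on which wild-type libraries were used. The median log2 fold change of the 42 genes was 0.31 without wild-type replicate 2 and 0.52 without wild-type replicate 3. Without both of them, in a fit added after the data were seen, it was 0.03, and 0 members were called by edgeR. Without wild-type replicate 1, the log2 fold change was positive for 34 of the 42 genes, against 45% of all loci, and the median was 0.93. Of the members, 25 then had an unadjusted p under 0.05 and higher knockout levels, beside 10.1% of all loci, and 2 had lower ones, beside 8.31%. edgeR's quasi-likelihood test with Benjamini-Hochberg adjustment still called 0 members and 0% of loci, with a lowest member adjusted p of 0.103, for Pfkl. The enzymes held 13 of these 25 genes, out of 15, and the other targets 6 out of 14.

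The direction of the median over all 42 genes turned when the 3 libraries highest in macrophage markers were left out, which compares wild-type replicate 1 with knockout replicates 2 and 3. In that fit wild-type replicate 1 stood alone, and its spread was taken from knockout replicates 2 and 3. The log2 fold change was positive for 14 of the 42 genes, against 52% of all loci, and the median was -0.09. By edgeR, 0 members were called, 0 had an unadjusted p under 0.05 with a higher knockout level, beside 2.1% of all loci, and 1, Pfkfb4, had one with a lower level, beside 1.4%. Hif1a had a positive value of 0.34, Ddit4 of 0.27, Hk2 of 0.11, Ankrd37 of 0.51 and Pdk3 of 0.06. Those of Ldha and Slc2a1 were -0.12 and -0.03, and that of Pfkfb4 was -0.63. For Pfkfb4 and the positive genes named here, groups did not overlap in all 6 libraries. Their sign in this fit was thus largely set in advance and is no separate result. Car12, whose groups overlapped, was also positive at 0.47. Fibroblast, proliferation and macrophage markers and depth differ between the same libraries, and their part in these values was not tested.

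**Figure D4:**
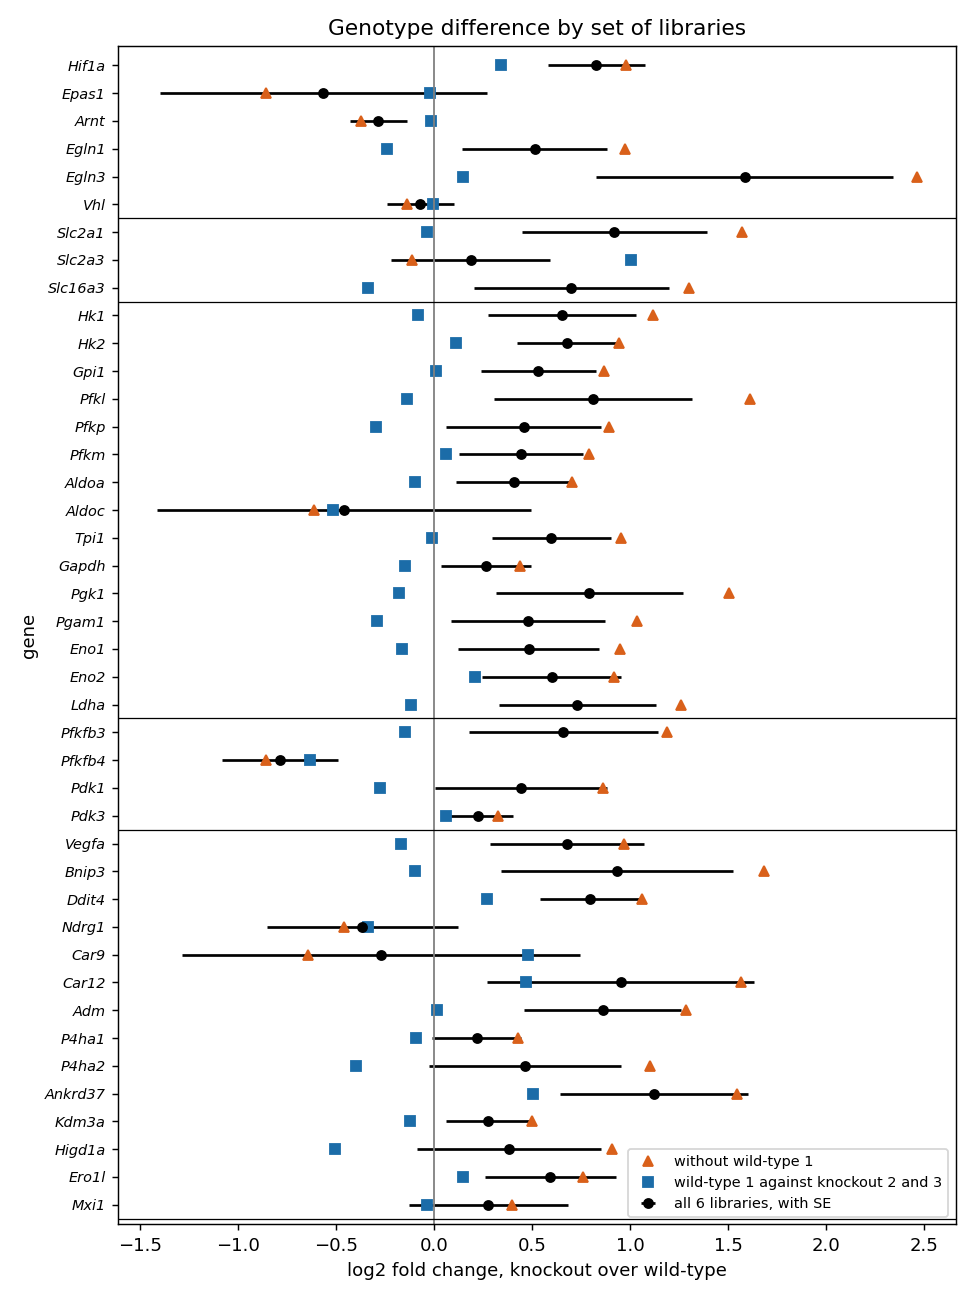
Log2 fold change (knockout minus wild-type) for each of the 42 genes, with all 6 libraries (black, with standard error), without wild-type replicate 1 (orange triangles) and for wild-type replicate 1 against knockout replicates 2 and 3 (blue squares). The medians of the 3 sets are 0.50, 0.93 and -0.09. Pfkfb4 is negative and Hif1a, Hk2, Pdk3, Ddit4 and Ankrd37 are positive in each. These signs follow largely from groups that do not overlap in all 6 libraries.

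Of further genes of the same pathways, edgeR called 0 as well. Of 20 further genes of glycolysis, 16 passed the filter on low counts, 8 of them had a positive log2 fold change, and the median was under 0.01. Groups did not overlap for 3 of the 16 with higher knockout levels, beside 5.18% of all loci, and for 0 with lower ones, beside 5.44%. Slc16a1, the monocarboxylate transporter MCT1, was measured at 55.3, 56.2 and 49.7 CPM in wild-type and at 93.7, 77.6 and 127 CPM in knockout libraries. It varied little among the wild-type libraries, and edgeR's quasi-likelihood test gave an unadjusted p of 0.00533 at a log2 fold change of 0.89 ± 0.21 (SE). Pdk4 was measured at 9.16, 6.91 and 7.16 CPM in wild-type and at 14, 12.3 and 42.9 CPM in knockout libraries, with the highest value in knockout replicate 3 and a log2 fold change of 1.57. Ldhb and Pgm2 had log2 fold changes of 0.93 and 0.84.

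Of 27 further genes of the HIF pathway, 26 passed the filter, 16 of them were positive, and the median log2 fold change was 0.32. Groups did not overlap for 5 of the 26 with higher knockout levels, beside 5.18% of all loci, and for 1 with lower ones, beside 5.44%. Angptl4, a lipoprotein lipase inhibitor whose locus is shared with 4931413I07Rik, was one of them. The locus was measured at 58.0, 12.1 and 13.7 CPM in wild-type and at 147, 94.7 and 70.3 CPM in knockout libraries. Its log2 fold change was 1.89 ± 0.70 (SE), and edgeR's quasi-likelihood test gave an unadjusted p of 0.0352. Plod2, Vldlr and Gbe1, which act in collagen hydroxylation, lipoprotein uptake and glycogen branching, had log2 fold changes of 0.62, 0.59 and 1.35. Of the 8 genes measured for the oxidation of pyruvate in the mitochondria, namely pyruvate dehydrogenase subunits, its phosphatases and citrate synthase, 2 were positive, and the median was -0.03. The 4 with the lowest p, Pdp2, Pdp1, Pdha1 and Cs, had log2 fold changes of -0.62, -0.80, -0.14 and 0.12. The mitochondrial pyruvate carriers were not analysed here.

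The authors' deposited table of their own comparison was matched by name and position for 22 of the 42 genes, and 19 of these had a positive log2 fold change. In the authors' deposited table no member had a q-value under 0.05, where 0.0568% of the 8799 genes tested there were called higher and 0.136% lower, and the lowest q-value of a member was 1. For Egln3 the authors' deposited table gave mean levels of 16.3 FPKM in wild-type and 50.1 FPKM in knockout cells, a log2 fold change of 1.62 and a p-value of 0.0214, the only member there with a p-value under 0.05.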

How the data were processed

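RNA of 3 wild-type and 3 knockout libraries was measured. Cuffdiff 2.0.1, TopHat2 2.0.6, CASAVA 1.8.2 and the build mm10 are named per the submitters' processing notes, without their roles or settings. Per the file headers, the authors deposited for each locus an expected count of fragments, an FPKM and a status. The authors' deposited table gives each genotype's mean FPKM, a log2 fold change (read as a score, since infinite values carry a placeholder), a p-value and a q-value.

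The expected counts were rounded to whole numbers, as 24.2% of those above 0 were not whole. The 2667 loci with no gene name, with 0.507% to 0.555% of fragments, and 16 loci marked HIDATA were left out; loci marked FAIL (1132 of the 36812 kept) stayed in. Counts were tested in R 4.3.3 with edgeR 4.0.16 (filterByExpr, TMM, robust quasi-likelihood fit, Benjamini-Hochberg adjustment over 15673 loci, threshold 0.05). The common biological coefficient of variation was 0.467. Alternatives used DESeq2 1.42.0 and limma 3.58.1 (voom, and log2 of FPKM with a pseudocount of 1 or 0.1), other scalings and filters (among them at least 1 CPM in 3 libraries), fits without FAIL loci and fits without libraries. The test was also run on simulated counts, drawn independently at each locus. They lack the pattern shared by many loci in the wild-type libraries. The outcome is not given, and no result here rests on it. Whether strand was used in counting is not stated.

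The members and lists were chosen with earlier results of these data known. Values in every library are given for the oxygen-sensing genes, for up to 6 members with the smallest p in each other role, and for members marked FAIL; further pathway genes are up to 4 per list with the smallest p. Aldoc and the copy loci were described after their values were seen. Replicate numbers only name the libraries. Precision is limited by 3 libraries per genotype.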

Additional observations from a re-analysis of the deposited data

How the results depend on the processing

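No member was called under any setting. No paired analysis was possible because the replicate numbers only name the libraries. The count of loci called, 0 with edgeR, was 61 with DESeq2 and 1 with limma on FPKM at a pseudocount of 0.1. Over the 42 members and the 12 further genes named, the other alternatives of test, scaling and filter kept the direction of each value and of the medians except as given here. Further genes, and the fit without wild-type replicates 2 and 3 (medians only), were added after the data were seen. Ranges cover each library left out in turn and wild-type replicate 1 alone against knockout replicates 2 and 3, which gives the lowest value unless stated.

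The median log2 fold change ran from -0.086 to 0.93 over all members, from -0.12 to 0.94 over the enzymes and from -0.064 to 0.94 over the other HIF targets, each highest without wild-type replicate 1. Without wild-type replicates 2 and 3 these medians were 0.032, -0.034 and 0.14. Enzymes minus other targets ran from -0.18 without wild-type replicates 2 and 3 to 0.18 without knockout replicate 1, and was -0.061 without FAIL loci and -0.054 with wild-type replicate 1 against knockout replicates 2 and 3.

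Single genes ran, highest without wild-type replicate 1, from -0.095 to 0.70 for Aldoa, -0.098 to 1.68 for Bnip3, -0.11 to 0.27 for Cs, -0.24 to 0.98 for Egln1, -0.16 to 0.95 for Eno1, -0.15 to 0.44 for Gapdh, -0.50 to 0.91 for Higd1a, -0.081 to 1.12 for Hk1, -0.12 to 0.50 for Kdm3a, -0.12 to 1.26 for Ldha, -0.091 to 0.43 for P4ha1, -0.40 to 1.10 for P4ha2, -0.27 to 0.86 for Pdk1, -0.15 to 1.19 for Pfkfb3, -0.14 to 1.61 for Pfkl, -0.30 to 0.89 for Pfkp, -0.29 to 1.04 for Pgam1, -0.18 to 1.5 for Pgk1, -0.098 to 1.45 for Pgm2, -0.34 to 1.30 for Slc16a3, -0.034 to 1.57 for Slc2a1, -0.0069 to 0.95 for Tpi1 and -0.17 to 0.97 for Vegfa. Highest without wild-type replicate 3, Aldoc ran from -0.96 and Epas1 from -1.01 without wild-type replicate 2 to 0.71 and 0.83. Mxi1 ran likewise from -0.039 to 0.57. Car9 and Vhl ran from -0.93 and -0.16 without knockout replicate 1 to 1.52 and 0.058, and Ndrg1 from -0.59 without knockout replicate 2 to 0.0097. With wild-type replicate 1 alone, Slc2a3 was highest at 1.01 and Pdp1 at 0.47, each ranging up from -0.11 and -1.16 without wild-type replicate 1. Limma on FPKM at pseudocounts of 1 and 0.1 gave 0.050 and 0.16 for Aldoc, 0.28 and 0.45 for Car9 and 0.0061 and 0.0069 for Vhl, and voom gave 0.19 for Car9. The cause was not tested. With 3 libraries per genotype, the spread among the wild-type libraries limits what can be called.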
